A study of Drosophila melanogaster with 2 samples.

Results

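The Mediator and TAF subunit genes were taken as the protein-coding genes of the Ensembl BDGP6 annotation whose symbol is MED or Taf followed by digits, with or without a letter. The rule found 40 of the 13945 protein-coding genes on the 6 chromosome arms, 25 of them MED genes and 15 Taf genes. They were examined in ChIP-seq region lists from whole Drosophila melanogaster embryos aged 0 to 24 h, males and females pooled. The flies were a transgenic line that stably expresses the homeodomain protein Lbe (ladybird early) with GFP at its C-terminus, and the immunoprecipitation used an antibody against GFP, per the sample descriptions, although the antibody field of the labels names lbe. Lbe is known for its part in the choice of muscle and heart precursor fates. The study has 1 group of 2 biological replicates. All embryos carried the fusion, and the input or control named for the peak calling was not analysed here. The labels give neither the promoter that drives the fusion nor the cells that make it, and whole embryos of all stages were mixed, so a region cannot be assigned to a cell type.

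Mediator is the large complex that carries signals from DNA-bound activators to RNA polymerase II. Its head and middle modules contact the polymerase, its tail contacts activators, and MED14 runs through the complex as a backbone. TFIID, made of the TATA-binding protein and the TAFs, recognises core promoters, and many TAFs pair with each other through histone folds.

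Sequences are printed for the strongest peaks within each group and for peaks with a promoter word near the summit. In most cases they lie between the start of a subunit gene and that of its neighbour. The median A+T content was 66.7% at the member summits, near the 64.2% at all summits on the arms, and it was 51.7% at MED19. Each stretch is given 5′ to 3′ on the strand of the named gene, from the RefSeq copy of genome release 6, without annotated untranslated regions (UTRs). For MED30 (chr3L:654155-654355), MED27 (chr3R:5654926-5655126) and Taf4 (chr3L:16113531-16113731) the stretch is centred on the summit, and for MED17 (chr3R:18188904-18189071) it runs from before the summit to the start of transcription. For Taf13 (chr2L:20093926-20093971) and Taf12 (chr3R:11679691-11679742) the summit itself lay in the transcribed part of the neighbour, which is not printed. MED7 (chr3R:10761047-10761247) is shown, like MED17, for its DNA replication-related element (DRE, TATCGATA), a promoter word of many housekeeping genes of the fly. MED19 (chr3L:17846502-17846638) and MED24 (chr3L:8191144-8191269) are shown because the core promoter word Motif 1 lay near their summits, in the transcribed part left out here. Capitals mark, on either strand, the DRE, the TATA box word TATAAA, the homeodomain word TAATTA and the Motif 6 core AAAATACC.
MED30: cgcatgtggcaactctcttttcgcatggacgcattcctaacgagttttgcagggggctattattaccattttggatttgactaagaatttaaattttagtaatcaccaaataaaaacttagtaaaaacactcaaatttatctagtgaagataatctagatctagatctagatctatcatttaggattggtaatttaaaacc
MED17: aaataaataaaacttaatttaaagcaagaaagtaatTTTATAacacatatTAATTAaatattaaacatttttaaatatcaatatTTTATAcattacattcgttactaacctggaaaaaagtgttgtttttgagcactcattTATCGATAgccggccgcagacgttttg
MED27: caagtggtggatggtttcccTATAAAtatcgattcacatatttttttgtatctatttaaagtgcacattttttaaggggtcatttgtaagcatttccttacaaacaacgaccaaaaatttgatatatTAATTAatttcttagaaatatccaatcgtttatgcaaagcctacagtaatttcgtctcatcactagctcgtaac
MED7: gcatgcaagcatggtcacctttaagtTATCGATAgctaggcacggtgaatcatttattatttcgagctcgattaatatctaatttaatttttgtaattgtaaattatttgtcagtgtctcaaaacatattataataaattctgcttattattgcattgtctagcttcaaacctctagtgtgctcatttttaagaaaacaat
MED19: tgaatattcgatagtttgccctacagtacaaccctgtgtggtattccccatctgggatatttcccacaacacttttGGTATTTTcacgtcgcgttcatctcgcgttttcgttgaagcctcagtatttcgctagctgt
MED24: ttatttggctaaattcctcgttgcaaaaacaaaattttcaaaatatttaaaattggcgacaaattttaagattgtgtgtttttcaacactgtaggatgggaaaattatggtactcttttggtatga
Taf4: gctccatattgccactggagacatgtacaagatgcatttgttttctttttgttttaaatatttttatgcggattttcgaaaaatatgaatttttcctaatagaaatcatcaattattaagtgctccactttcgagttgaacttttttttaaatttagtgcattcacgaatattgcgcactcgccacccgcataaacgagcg
Taf13: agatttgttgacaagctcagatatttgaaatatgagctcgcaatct
Taf12: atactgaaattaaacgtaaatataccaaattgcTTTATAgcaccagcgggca
A pair of complete spaces between head-to-head starts is given because each joins genes of the transcription machinery. The first, chr2L:2767846-2767889, lies between the starts of Taf10b and Taf10 and is printed on the strand of Taf10. The second, chr2L:8072849-8072894, lies between MED20 and Trf, the TBP-related factor, and is printed on the strand of MED20.
Taf10b to Taf10: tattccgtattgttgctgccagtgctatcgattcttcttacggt
MED20 to Trf: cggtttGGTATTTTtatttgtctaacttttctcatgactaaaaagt

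The authors deposited 1 list of regions per replicate, 1 for both replicates pooled, with 29999 regions each, and a list of 4782 peaks that passed a threshold on the irreproducible discovery rate (IDR), a measure of how alike regions rank in both replicates. Of these peaks 4753 lay on the chromosome arms, and they were the 4753 strongest pooled regions on the arms. An IDR peak therefore meant a pooled signal of at least 98.7 on the caller's own scale, which has no stated unit. The median signal of the peaks was 147 and the highest 1790. The long lists include background regions by design. Read depth is unknown, as the files hold no counts. The gene lbe itself had 0 regions within 1000 bp of a start site in any of the lists.

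The share of MED genes with an IDR summit near a start site was above that of protein-coding genes at large, and the share of Taf genes was close to it. Within 1000 bp of an annotated transcription start site (TSS), 12 of 25 MED genes had a summit, or 48.0% (95% Wilson interval 30.0 to 66.5, counting error only). For Taf genes it was 3 of 15, or 20.0% (7.05 to 45.2). Over all protein-coding genes the share was 24.4%, and over the 13905 others it was also 24.4% (23.7 to 25.1). The MED share was above that of the other genes by 23.6 percentage points (95% Newcombe interval 5.61 to 42.1). The Taf share differed from it by -4.41 points (-17.4 to 20.8). The difference between MED and Taf genes was 28.0 points, with an interval of -2.94 to 50.6 that includes 0, so the groups could not be told apart at this number of genes. These intervals describe counting error and are not a test of the lists, whose members were chosen with results of these data known.

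Among the strongest regions of each replicate the MED share was the highest and the Taf share the lowest, with a smaller gap in replicate 2. Among the 4782 strongest regions of replicate 1, 11 MED genes (44.0%) and 3 Taf genes had a summit, against 25.7% of all protein-coding genes. Among as many of replicate 2 these were 9 MED genes (36.0%) and 3 Taf genes, against 22.3%. In replicate 2 the MED share exceeded that of other genes by 13.8 points, with an interval of -2.0 to 33.3. Taf4, Taf12 and Taf13 were in the strongest regions of both replicates, as were 8 MED genes (32.0%, against 16.8% of other genes). Of the other MED genes, 3 were there only in replicate 1 and 1 only in replicate 2. In the whole pooled list 18 of 25 MED genes (72.0%, 52.4 to 85.7) and 8 of 15 Taf genes (53.3%, 30.1 to 75.2) had a region, against 51.8% of all protein-coding genes. The whole replicate 1 list reached 10 Taf genes (66.7%, 41.7 to 84.8) and 19 MED genes (76.0%, 56.6 to 88.5), against 56.3% of all. For replicate 2 these were 10 (66.7%, 41.7 to 84.8) and 18 (72.0%, 52.4 to 85.7), against 51.7%. The Taf share was thus above that of all genes in both, with intervals that include the latter.

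**Figure D1:**
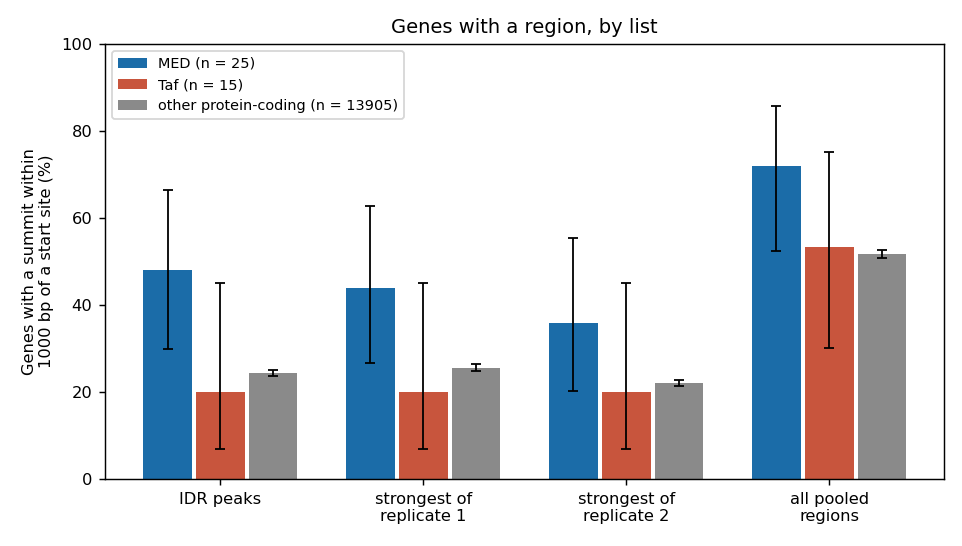
Share of MED, Taf and other protein-coding genes (y axis, percent) with a region summit within 1000 bp of a start site in the IDR list, the strongest 4782 regions of each replicate and the whole pooled list (x axis). Bars are shares and error bars 95% Wilson intervals; MED genes are above the other genes in each list, and the Taf interval spans the share of the other genes in each.

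Among the subunits assigned here to the Mediator head, MED17 and MED6 had an IDR peak. MED17, a core subunit of the head that holds the module together, had a peak of signal 308.9 (IDR rank 495) at chr3R:18188887-18189123, with its summit 68 bp upstream of the start. Its signal was 200.9 in replicate 1 and 107.4 in replicate 2, with summits 77 and 74 bp upstream. The position therefore moved by a few bases between the replicates, and the rank was high in both (492 and 706). MED6, a head subunit that bridges to the middle module, has 5 annotated starts and had a pair of peaks, of signal 169.4 and 132.3, at 44 and -11 bp from the nearest of them. MED8 and MED11 had pooled regions of signal 57.20 and 39.50, below the IDR threshold. MED18 and MED22 had regions in replicate 2 only, and MED20 had none in any list.

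Of the genes assigned here to the middle module, MED7, MED4 and MED31 had a peak. That module joins the head to the rest of the complex. MED7 had a signal of 185.9 with the summit 115 bp upstream, 140.8 in replicate 1 and no region within 1000 bp in replicate 2. MED4 had 143.4 at 190 bp upstream, with 84.99 in replicate 1 and 52.29 in replicate 2 at 182 and 181 bp upstream. MED31 had 111.7 at 264 bp upstream, with 72.45 and 50.57 in the replicates. The strongest replicate 2 region of MED31 had its summit 473 bp upstream, and a weaker one of signal 40.33 had its summit within 200 bp of the IDR summit. MED9, MED10 and MED1 had weaker pooled regions (71.68, 70.11 and 55.48), and MED21 had none in any list.

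In the tail, the module that receives activators, MED16, MED24 and MED15 had a peak. MED16 had a signal of 160.6 at 72 bp upstream, with 116.1 and 67.49 in the replicates. MED24 had 108.6 at 26 bp upstream, with 86.72 in replicate 1 and 34.87 in replicate 2. MED15, a subunit known from yeast as a target of activators, had the weakest peak of the members, 100.4, with its summit 619 bp upstream. Its rank was 7416 in replicate 1, outside the strongest 4782, and 2779 in replicate 2. Of the remaining tail genes, MED25 had a region only in replicate 2, at 999 bp upstream, and MED23 had none.

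The strongest peak near a Mediator start was at MED30, one of the subunits found in animals and not in budding yeast. Its signal was 377.3 (IDR rank 311) at chr3L:654120-654365, with 287.3 in replicate 1 and 96.71 in replicate 2. The summit lay 166 bp upstream of the MED30 start and nearer, at 108 bp, to that of the neighbour Rev1. MED27, which in mammals lies near the junction of head and tail, had 303.5 at chr3R:5654970-5655150, 113 bp upstream, with 203.0 and 98.37. Both were among the strongest 1000 regions of each replicate list, at 212 and 943 for MED30 and at 484 and 889 for MED27. MED19 had a signal of 118.4 at 37 bp upstream, with 66.04 and 53.06 in the replicates. MED26, known in mammals as a link to elongation factors, had 104.9 on chromosome 4, 62 bp inside an internal start, with 71.28 in replicate 1 and no region in replicate 2. MED28 had a pooled region of 33.61, and the backbone gene MED14 had replicate regions alone. By the modules assigned here, 2 of 7 head genes and 3 of 7 middle genes had an IDR peak. So did 3 of 5 tail genes and 4 of 6 backbone or other Mediator genes. The last class held MED14, MED19, MED26, MED27, MED28 and MED30, and another assignment of these genes would change the counts. Their intervals all overlap (the lowest 8.22 to 64.1% for the head, the highest 30.0 to 90.3% for the last), so the modules cannot be ordered.

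The Taf genes with an IDR peak were Taf4, Taf13 and Taf12, or 3 of the 11 that code for histone-fold TAFs (27.3%, 9.75 to 56.6, against 24.4% of all protein-coding genes). Taf4, whose product pairs with that of Taf12, had the strongest peak of all members, 397.8 (IDR rank 274) at chr3L:16113516-16113743. It was also the member with the highest signal in replicate 2, 168.6, and had 232.2 in replicate 1, with summits 184 and 159 bp upstream of a start. Taf4 has 3 annotated starts and the summit lay in an intron, beside an internal start. Taf13, which pairs with Taf11, had a signal of 119.5 at 177 bp upstream, with 72.91 and 45.08 in the replicates. Taf12 had 102.3 at 81 bp upstream, with 69.63 and 45.41. Taf4 thus stood apart from the other Taf genes, which had signals close to the IDR threshold or below it.

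Several histone-fold Taf genes had pooled regions below the threshold of 98.7, at signals of 71.69 to 83.98. MED9 (71.68) and MED10 (70.11) were at a similar level. Taf10 and Taf10b, close relatives of the human TAF10, which pairs with TAF8 or TAF3, share 1 pooled region of 83.98 (rank 6107). Taf3 had 75.15 at 579 bp inside the gene, Taf9 (the partner of Taf6) 72.46 at 44 bp upstream and Taf8 71.69 at 601 bp upstream. Between the strongest 6000 and the strongest 8000 pooled regions the Taf count went from 3 to 8 of 15, or from 20.0% to 53.3%, while the other genes went from 28.3% to 33.9%. MED genes went from 12 to 14 over the same span. Over this span, whose upper end was chosen after seeing the data, the Taf count moved more than the MED count. Taf10 and Taf10b add 2 genes for 1 region. Between the strongest 3000 and the strongest 4782 pooled regions the MED count moved more, from 7 to 12, while the Taf count went from 1 to 3. The 4 TAF genes without a histone fold, Taf1 (the largest subunit, a scaffold of TFIID), Taf2, Taf5 and Taf7, had 0 pooled regions. The interval for 0 of 4 reaches 49.0%, just short of the 51.8% of all protein-coding genes. It rests on 4 genes, and the difference was not tested. Taf2, Taf5 and Taf7 had replicate regions, the best ranked being that of Taf5 in replicate 2 (signal 42.08, rank 4990), and Taf1 had none in any list. Of the remaining histone-fold genes, Taf11 had a region of 35.17 in replicate 2 alone, and Taf6 and Taf12L had none.

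**Figure D2:**
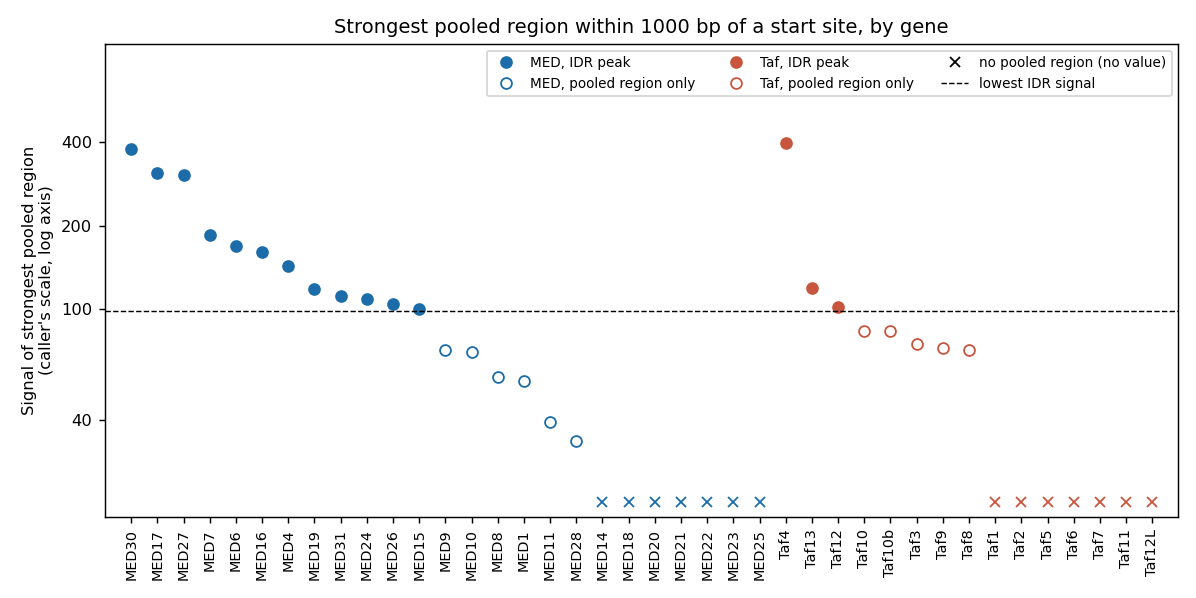
Signal of the strongest pooled region within 1000 bp of a start site (y axis, the caller's scale, log axis) for each of the 40 genes (x axis). Filled points are IDR peaks, open points pooled regions only, and crosses at the bottom genes with no pooled region and no value. Open points of 5 Taf genes and of several MED genes lie below the dashed line at 98.7.

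**Figure D3:**
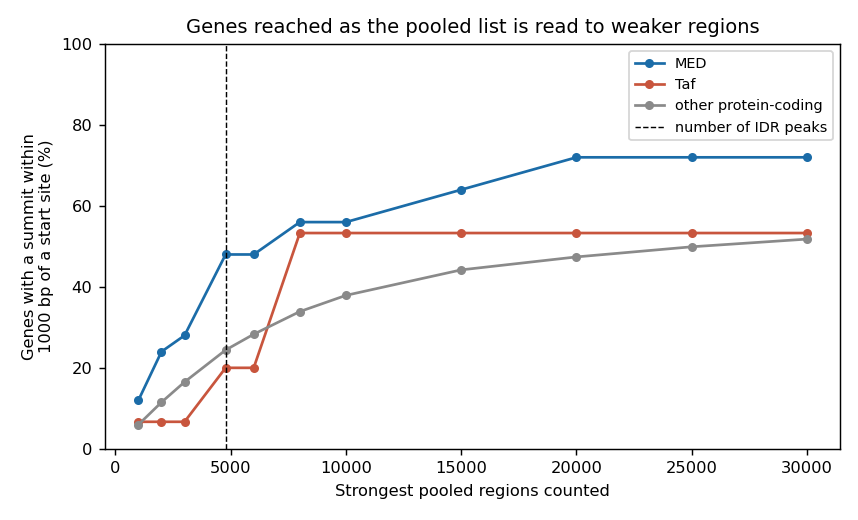
Share of MED, Taf and other protein-coding genes reached (y axis, percent) as the pooled list is read from its strongest to its weakest regions (x axis, number of regions counted). The Taf line is flat at 20.0% from 4782 to 6000 regions and stands at 53.3% at 8000, while the MED line is above that of the other genes at each depth drawn.

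MED20, MED21, MED23, Taf1, Taf6 and Taf12L had no region in any list. They make 15.0% of the 40 genes, against 36.3% of the other protein-coding genes. At the edges of the window, MED25 was the farthest inside, and an IDR summit lay just outside it for MED9 (signal 125, at 1075 bp) and farther out for Taf10 and Taf10b (150, at 1850 and 1805 bp). By chromosome, the MED genes with an IDR peak were 5 of 7 on 3R (25.9% of other genes there), 4 of 9 on 3L (26.0%), 1 of 4 on 2R (23.7%), 1 of 2 on 2L (23.3%), 1 of 1 on chromosome 4 (23.1%) and 0 of 2 on the X (22.3%). The Taf genes were 1 of 3 on 3R, 1 of 3 on 3L, 1 of 5 on 2L, 0 of 1 on 2R, 0 of 1 on chromosome 4 and 0 of 2 on the X.

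The summits lay close to the starts and mostly upstream. Of the 15 genes with an IDR peak, 13 (86.7%) had their strongest summit upstream of the nearest start and 13 (86.7%) within 250 bp of it. Over all protein-coding genes with a peak these shares were 80.6% and 69.0%. The median distance was 92.5 bp for MED genes and 159 bp for Taf genes, against 150 bp. The signals were not higher than those of other genes: the median was 152 for MED genes and 120 for Taf genes, against 156 for all protein-coding genes with a peak. In 9 genes the summit lay between genes. In the other 6 it lay inside an annotated gene, which was the member itself for MED26 (5′ UTR) and Taf4 (intron), both for MED6 (its 5′ UTR and an intron of Naa80), and the neighbour for MED31 (intron of CG9775), Taf12 (5′ UTR of Ho) and Taf13 (5′ UTR of nesd). All 15 peaks had a replicate 1 summit within 200 bp. In replicate 2, MED7 and MED26 had none, and the share with one was 86.7%, against 94.7% of all peaks at protein-coding genes.

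**Figure D4:**
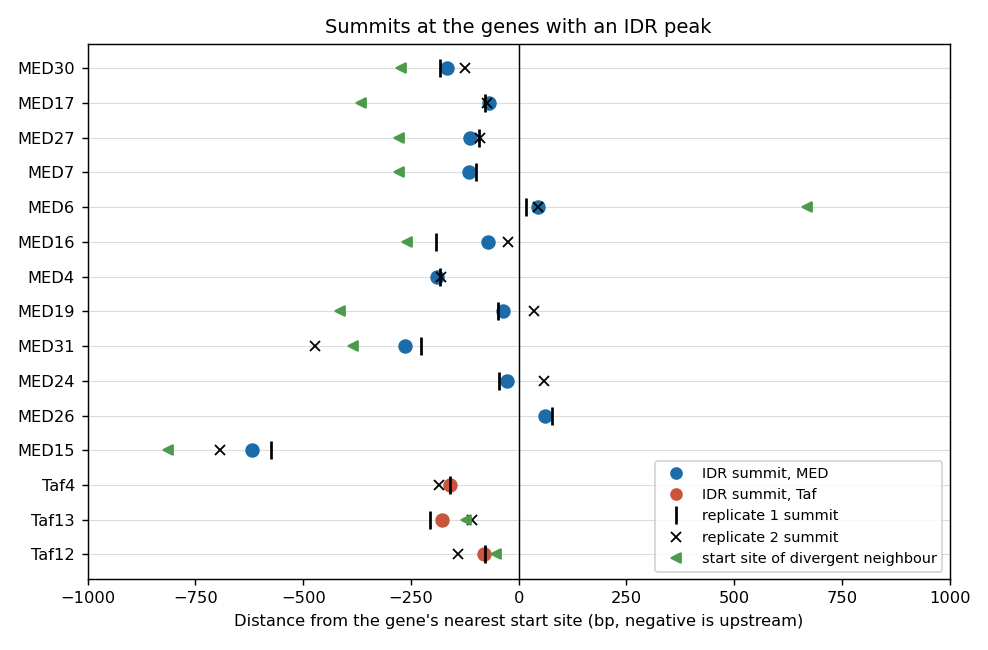
Position of the strongest IDR summit relative to the nearest annotated start (x axis, bp, negative is upstream) for the 15 genes with a peak (y axis). Coloured points are IDR summits, bars and crosses the strongest summits in replicates 1 and 2, and triangles the start of a head-to-head neighbour that has the same peak in its window; for MED15, MED30, MED31, Taf12 and Taf13 the triangle is nearer to the summit than the zero line.

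Most subunit genes share their promoter region with a gene on the other strand. A head-to-head protein-coding start within 1000 bp upstream was found for 31 of 40 members, or 77.5% (62.5 to 87.7), against 36.1% (35.3 to 36.9) of the other protein-coding genes. It was found for 19 of 25 MED genes (76.0%) and 12 of 15 Taf genes (80.0%). This matters for the count of peaks, because a summit between such starts counts for both genes. Among other genes an IDR peak was present at 39.8% of divergent promoters and at 15.7% of the rest. At divergent promoters MED genes had a peak in 9 of 19 cases (47.4%, 27.3 to 68.3) and Taf genes in 3 of 12 (25.0%, 8.89 to 53.2). The MED difference from other divergent genes was 7.58 points, with an interval of -12.5 to 28.5 that includes 0. At the remaining promoters 3 of 6 MED genes had a peak (MED4, MED24 and MED26; 50%, 18.8 to 81.2) and 0 of 3 Taf genes (interval up to 56.1). The MED difference there was 34.3 points (3.04 to 65.5), on 6 genes. If members had peaks at the rates of other genes by promoter kind, 8.50 MED genes and 5.25 Taf genes would have one, and 12 and 3 did. For both groups together the figures are 13.8 and 15.

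**Figure D5:**
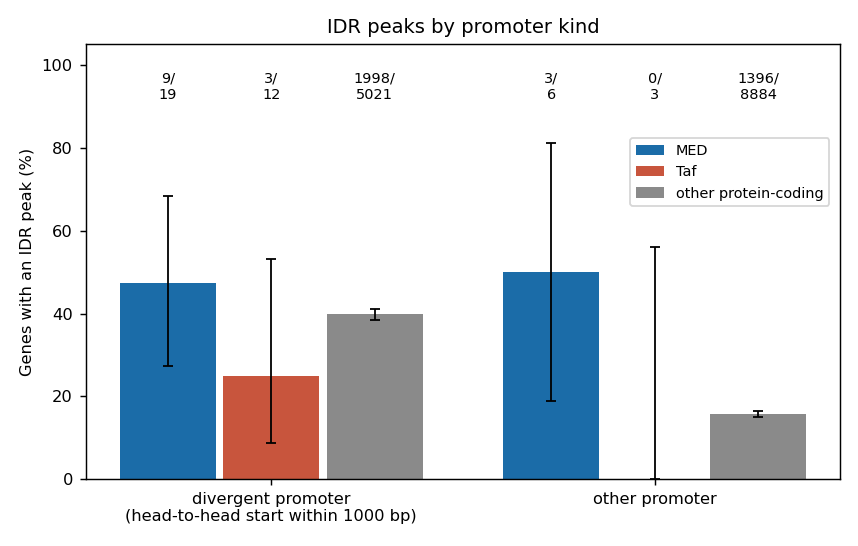
Share of genes with an IDR peak (y axis, percent) at divergent promoters, with a head-to-head start within 1000 bp, and at other promoters (x axis), for MED, Taf and other protein-coding genes. Bars are shares, error bars 95% Wilson intervals and the printed fractions the gene counts; at divergent promoters the MED and Taf intervals both include the 39.8% of other genes.

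The peaks at divergent promoters were nearly all shared with the neighbour. Of 12 such members with an IDR peak, 11 had a peak that was also in the window of the neighbour, and among other divergent genes with a peak this share was 93.1%. The summit was nearer to the member for MED6 (with Naa80, an actin N-acetyltransferase), MED7 (with Cap-H2, a condensin II subunit), MED16 (with CG11170), MED17 (with CG12321), MED19 (with CG7430) and MED27 (with elm). It was nearer to the neighbour for MED15 (CG4297, 194 bp away), MED30 (Rev1, a translesion DNA polymerase, 108 bp), MED31 (CG9775, 120 bp), Taf12 (Ho, heme oxygenase, 28 bp) and Taf13 (nesd, 54 bp). Which of the genes at such a promoter a summit belongs to cannot be told apart here. The exception was Taf4, whose peak by an internal start lay just outside the 1000 bp window of Zn72D, its neighbour at 586 bp. This exception therefore depends on the edge of the window. Of the 19 divergent members without a peak, 0 had a neighbour with one, against 4.86% of other such genes. The windows of close neighbours overlap, and Taf10 and Taf10b are each other's neighbour, so this count is largely set by the layout.

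The distance between the starts was short for many pairs, with a median of 259 bp for MED genes, 199 bp for Taf genes and 298 bp for other genes. The closest pairs were MED6 and Naa80 (19 bp between a pair of their starts), Taf10 and Taf10b (45 bp), MED10 and PDCD-5 (46 bp), MED20 and Trf (47 bp), and Taf12 and Ho (53 bp). Among these, the space between Taf10b and Taf10 joins a pair of TFIID genes, and that between MED20 and Trf, printed above, joins a Mediator gene to a relative of TBP. The further pairs without an IDR peak under 250 bp were MED23 with Gmer (71 bp), MED18 with Gcna (74 bp), Taf2 with the calpain gene CalpB (79 bp), MED28 with CG4553 (88 bp), Taf11 with und (107 bp), MED9 with the nucleoporin gene Nup75 (115 bp) and MED22 with CG43867 (164 bp). At wider spaces lay Taf7 with EMC1, a gene of the ER membrane protein complex (275 bp), Taf5 with the peroxisomal gene Pex6 (301 bp), Taf6 with the histone methyltransferase gene ash1 (333 bp), MED25 with Hs6st (435 bp) and MED8 with CG8929 (464 bp). The widest were MED22 with Lztr1 (557 bp), Taf8 with the ESCRT-I gene Mvb12 (656 bp), Taf3 with CG33941 (669 bp) and MED1 with the sphingolipid regulator ORMDL (859 bp). MED peaks were concentrated at spaces of 251 to 500 bp, where 6 of 8 MED genes (75.0%) and 0 of 3 Taf genes had one, against 45.9% of other genes. These were MED16 (259 bp), MED30 (274 bp), MED7 and MED27 (278 bp each), MED17 (365 bp) and MED19 (415 bp). At spaces of 1 to 100 bp it was 1 of 6 MED genes and 1 of 4 Taf genes, against 39.1%. These classes were chosen after the values were seen. MED9 and MED31 also share a start on the same strand with CG42518 and slx1, respectively.

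Promoter words were counted in the window from 250 bp before to 50 bp after the most upstream start of each gene. This window was also chosen after the values were seen, and differences between the groups were not tested. Peaks were counted at any start, so a word and a peak of the same gene can lie at different starts. Motif 1, searched as GGTCACAC on both strands, was in 9 MED promoters (36.0%) and 3 Taf promoters (20.0%), against 7.64% of other protein-coding promoters and 13.1% of the divergent ones. The DRE, TATCGATA, was in 7 MED promoters (28.0%) and in that of Taf3 alone among Taf genes, against 9.33% and 15.7%. TAACTA, the word of ladybird-type homeodomains, was in 8 Taf promoters (53.3%) and 2 MED promoters (8.00%), against 16.7% and 19.6%. Of the MED genes with Motif 1, 3 of 9 had an IDR peak, against 34.5% of other genes with the word, and of those with the DRE 2 of 7, against 41.1%. Of the Taf genes with TAACTA 1 of 8 had one, against 28.7%. Since Taf10 and Taf10b share their promoter region, their TAACTA copies are not separate cases. The homeodomain word TAATTA was in 36.0% of MED and 20.0% of Taf promoters, against 20.5% of others, and 5 of the 9 MED genes with it had a peak, against 26.1%. TATAAA was in 48.0% of MED and 60% of Taf promoters, against 45.8%. It was in the promoters of all 3 Taf genes with a peak, among 9 Taf promoters that hold it. It was also in 12 MED promoters, of which 4 had a peak, against 24.5% of other genes with it. For Taf4 and MED26, counted here, the peak lay by an internal start and not at the start where the word was counted. The E-box was in 12.0% of MED and 20.0% of Taf promoters (17.7% of others), the Motif 6 core in 12.0% and 6.67% (5.27%) and GAGAGA in 4.00% and 6.67% (12.4%).

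At the summits themselves, within 100 bp, the words were few. Of the 16 IDR summits at the members, counting both at MED6, 3 (18.8%) held TAATTA, at MED17, MED27 and MED31, against 15.6% of all 4753 summits. TAACTA was at 1 (Taf12), or 6.25% against 11.4%. The DRE was at MED7 and MED17 and Motif 1 at MED19 and MED24, each 12.5%, against 7.95% and 4.25% of the summits at protein-coding genes and 5.05% and 2.76% of all summits. TATAAA was at 31.2%, against 34.0%, while GAGAGA (MED15), the E-box CAGCTG (MED26) and the Motif 6 core AAAATACC (MED19) were each at 1 summit, against 15.0%, 11% and 3.37%. The summit regions of MED30, MED4, MED16 and Taf4 and both of MED6 held none of the words searched. The median A+T content was 66.7% at the member summits and 64.2% at all.

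Other genes of the transcription machinery were listed by complex and are given beside the 24.4% of all protein-coding genes with an IDR peak. Their promoter kinds were not examined. Of 4 genes of the Mediator kinase module, which carry other symbols, skd (MED13) had an IDR peak of signal 116, and kto (MED12), Cdk8 and CycC had none. Tbp, the gene of the TATA-binding protein in TFIID, had a peak of 160, and of the TBP-related genes Trf2 had 253 and Trf none. Of the testis TAF genes, only can, sa, mia and nht were listed here, and none of these 4 had a peak. Among 18 genes of the general factors 8 had one (44.4%, 24.6 to 66.3), led by the TFIIH gene Ssl1 with 1090 (IDR rank 38), mrn with 221, TfIIA-S with 206 and Tfb5 with 143. Of 12 RNA polymerase II subunit genes 5 had one (41.7%, 19.3 to 68.0), led by Polr2B with 307, Polr2J with 215, Polr2F with 174 and Polr2H with 167. The SAGA coactivator, which shares several TAFs with TFIID, had 11 of 18 genes with a peak (61.1%, 38.6 to 79.7), led by the acetyltransferase gene Gcn5 with 768 (IDR rank 64), wda with 262, Atxn7 with 203 and Ada3 with 166. Of the 11, not and Sf3b5 had their summits near the edge of the window, at 984 and 995 bp, and the intervals of the lists overlap. Ssl1 and Gcn5 thus had higher signals than any MED or Taf gene.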

How the data were processed

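The authors deposited ChIP-seq region lists in narrowPeak format for each of 2 replicates, for both pooled, and for peaks past the IDR threshold. The signal of each region comes from the authors' caller, its scale has no stated unit, and it was used here only to rank regions within a list. It also has a deposited −log10 q-value, not used for any result. The labels give a fragment size of 200 to 800 bp after sonication. For aligner and peak caller, names and versions were not given in the sources used here. Lists in the older genome build were not used. The summit is the start plus the offset given with each region.

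Start sites came from Ensembl release 115 (BDGP6.54). A gene had a region where a summit lay within 1000 bp of any of its start sites. A promoter was divergent where a protein-coding start on the other strand lay within 1000 bp upstream. Shares carry 95% Wilson intervals and their differences Newcombe intervals, computed with Python 3.11.15, NumPy 2.4.6 and SciPy 1.17.1. They cover counting error only, and genes that share a summit are not independent. Words were searched by exact match on both strands, each word counted on its own where copies overlap. The assignment was tested on simulated data, where 200 of 200 planted summits were recovered and 200 of 200 outside the window were left out.

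Every member is named, with its region where it has one. The neighbours are all protein-coding genes with a head-to-head start within 1000 bp, and from each further list the genes with an IDR peak, up to 4 by signal, are named. The members, lists and alternatives were chosen with earlier results of these data known. The alternatives were other windows, 1 start per gene, each summit to its nearest gene, region overlap, the IDR peaks above their median signal, each replicate alone, symbols in any case and, added later, the strongest 8000 pooled regions.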

Additional observations from a re-analysis of the deposited data

How the results depend on the processing

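The count of MED genes with an IDR peak, 12, ran from 9 to 14 under windows of 200, 500 and 2000 bp, 1 start per gene, nearest gene only, region overlap and the strongest 8000 pooled regions. With only the IDR peaks above their median signal it was 6 (24.0%, against 13.7% of other genes). The Taf count of 3 (20.0%, against 24.4%) was 5 with a window of 2000 bp (33.3%, against 29.1%), 1 with each summit given to its nearest gene only (6.67%, against 18%), 1 with the peaks above the median signal (against 13.7%) and 8 with the strongest 8000 pooled regions (53.3%, against 33.9%), the last chosen after seeing the data. With a window of 200 bp it stayed 3, against 16.5% of other genes, so the Taf share was above that of other genes at 200 and 2000 bp and below it at 500 (21.4%) and 1000 bp. For both groups together the peaks above the median signal gave 7 in place of 15. Leaving out replicate 1 or 2 gave 9 and 11 MED genes, 3 and 3 Taf genes, and 12 and 14 in all: MED7, MED24 and MED26 had no peak without replicate 1, and MED15 none without replicate 2. Symbols in any case add TAF1B, a gene of the RNA polymerase I machinery with a peak of 220, for 4 Taf genes. Of the 15 genes with a peak, MED6, MED16, MED17, MED27 and Taf4 kept it under all 10 alternatives, and 18 of the 25 without one never gained it. Part of this was fixed in advance. The 2000 bp window, region overlap and the strongest 8000 pooled regions can only add peaks. Windows of 200 and 500 bp, 1 start per gene, nearest gene only and the peaks above the median signal can only remove them. The divergent count of 31 was 26 with a distance of 500 bp (65.0%, against 27.2%) and 31 with 2000 bp (77.5%, against 44.4%). The cause of these changes was not tested. Depth is unknown, and 25 and 15 genes leave wide intervals.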
